A study of Mus musculus with 10 samples.

Results

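Myosin is the motor of the sarcomere, and its genes were followed here in mouse myotubes treated with gapmers against the muscle lncRNA Charme. The genes are those of a given list, namely the sarcomeric heavy chains Myh3, Myh8, Myh1 and Myh7, the light chains Mylpf, Myl1, Myl4 and Myl6b, and the thick filament protein Mybph. Further sarcomeric myosin genes of the table, Myh4, Myh7b and Myl2, are not in this list and are described apart. All 9 listed genes were present among the 11228 genes of the expression table, and all 9 passed the minimum mean of 1 FPKM over the libraries that was set for testing. FPKM corrects the fragments of a gene for its length and for the size of the library, so levels can be compared between genes. Comparisons between libraries still depend on how the libraries are scaled, and results under other scalings are given at the end.

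The cells were myotubes differentiated in culture for 2 days; the labels name neither the line nor the animals they came from. One group was treated with GAP-2, a gapmer against Charme, and another with the set named GAP-2/3. The third group, GAP-scr, received a scrambled gapmer, so that every library comes from cells exposed to an antisense oligonucleotide. Each group had 2 libraries, A and B, made from polyadenylated RNA. Going by the names, the GAP-2 gapmer may be part of GAP-2/3, and the control libraries are common to both arms. Charme's own level is not analysed here. Libraries A and B are described as biological replicates, but not as separate cultures. A limma p-value here rests on the spread between libraries of a group, pooled over all groups and moderated by the spread of other genes. It measures no variation beyond that between these libraries, and that may be technical.

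A sarcomeric myosin molecule has a pair of heavy chains, which hold the ATPase and the actin-binding site, and on each heavy chain neck an essential and a regulatory light chain. Skeletal muscle exchanges these subunits as it develops: the embryonic and then the perinatal heavy chain give way to the adult fast and slow isoforms, and the embryonic essential light chain gives way to the adult ones. Cultured myotubes are at the start of this sequence, and the embryonic heavy chain is their usual main isoform.

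The genes of the embryonic, adult fast and perinatal heavy chains lie side by side on mouse chromosome 11 in the order Myh3, Myh2, Myh1, Myh4 and Myh8, whereas Myh7 lies on chromosome 14. RefSeq promoter windows (build GRCm38.p6) were found for all 9 genes. The 250 bases before the annotated start are shown for the 4 heavy chain genes, to show which sequence these neighbouring paralogs share ahead of their starts, with Myh7 from another chromosome beside them. They are written 5′ to 3′ on the strand of the gene, and capitals mark runs of at least 10 bases that are identical in another of the 4 windows. The windows are chr11:67078050-67078299 (plus strand) for Myh3, chr11:67276874-67277123 (plus) for Myh8, chr11:67199852-67200101 (plus) for Myh1 and chr14:54994627-54994876 (minus) for Myh7, which has a second annotated start downstream that is not shown.
Myh3: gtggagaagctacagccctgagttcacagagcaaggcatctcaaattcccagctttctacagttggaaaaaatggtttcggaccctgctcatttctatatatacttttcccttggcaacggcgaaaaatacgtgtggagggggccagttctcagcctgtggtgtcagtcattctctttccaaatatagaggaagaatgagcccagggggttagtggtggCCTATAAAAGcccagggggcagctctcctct
Myh8: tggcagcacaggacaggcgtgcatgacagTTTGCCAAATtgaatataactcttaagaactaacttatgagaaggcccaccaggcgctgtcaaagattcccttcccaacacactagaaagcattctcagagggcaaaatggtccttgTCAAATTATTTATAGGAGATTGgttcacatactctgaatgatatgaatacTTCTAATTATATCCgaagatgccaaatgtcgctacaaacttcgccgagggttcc
Myh1: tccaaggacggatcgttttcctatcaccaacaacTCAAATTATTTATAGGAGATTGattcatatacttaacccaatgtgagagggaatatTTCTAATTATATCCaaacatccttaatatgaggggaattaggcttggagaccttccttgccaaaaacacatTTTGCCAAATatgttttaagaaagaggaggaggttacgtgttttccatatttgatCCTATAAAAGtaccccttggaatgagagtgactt
Myh7: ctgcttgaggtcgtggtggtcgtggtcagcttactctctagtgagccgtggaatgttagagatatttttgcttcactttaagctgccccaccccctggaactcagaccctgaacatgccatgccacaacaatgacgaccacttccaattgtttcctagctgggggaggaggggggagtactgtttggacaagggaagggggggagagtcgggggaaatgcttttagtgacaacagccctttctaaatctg

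Myh8 and Myh1 shared a run of 22 bases, TCAAATTATTTATAGGAGATTG, which began 104 bases before the start of Myh8 and 216 bases before that of Myh1. Of 32851 RefSeq windows of this length only 2 held it on either strand (0.00609%), and these are the 2 windows shown. A second run of 14 bases, TTCTAATTATATCC, lay downstream of it, 54 bases before the start of Myh8 and 160 bases before that of Myh1. It was also present in the windows of Myh2 and Myh4 and in no other window, 4 in all (0.0122%). Neither run was found in the windows of Myh3 or Myh7. The 22-base run of both genes contains a match to the MEF2 consensus, the motif of a family of muscle transcription factors, and overlapping it a TATAAA box on the opposite strand. A MEF2 match was present in 2.92% of all windows, and the windows of Myh3, Myh7 and Myh2 held none. The pair is not particular to the 22-base run. The window of the neighbouring Myh4, which lacks that run, held a MEF2 match 182 bases before the start and a TATAAA box overlapping it. The TATAAA box was searched on both strands and was present in 12.4% of all windows. Myh3 and Myh1 carried one 29 and 32 bases before the start, within the 10-base run CCTATAAAAG that they share. The TATAAA box of Myh8 lay 96 bases before the start, that of Myl1 95 and that of Mybph 39 bases before it.

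The muscle E-box CANNTG was searched on both strands and was present in 66.2% of all windows. Myh3 had 1, 191 bases before the start, Myh8 had 1 at 32 and Myh7 1 at 106, and Myh1 had none. Mylpf had 1 at 51 bases, Myl1 1 at 224, Myl6b 1 at 127 and Mybph 1 at 79, while the window of Myl4 held none. Myl1 has separate promoters for its light chains, but only 1 window was searched. Its E-box and TATAAA positions describe that window alone. The SRF-binding CArG consensus, present in 1.47% of windows, was found in none of the 9 genes. A match is a description of these letters and not a bound site, and no match says only that the letters are not in this window.

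**Figure D1:**
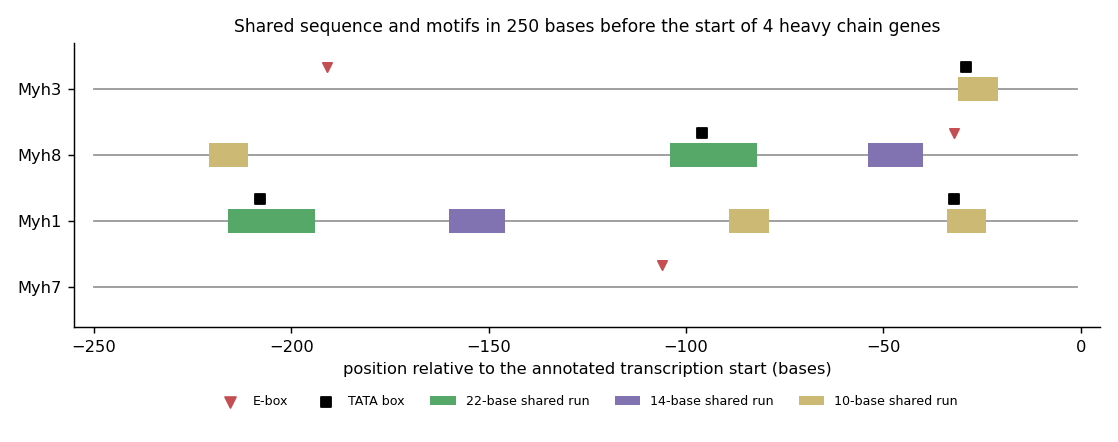
Position, in bases relative to the annotated start, of shared runs and motifs in the 250 bases before 4 heavy chain genes. Coloured blocks are runs identical in another of the 4 windows (22, 14 or 10 bases), triangles are E-boxes and squares are TATAAA boxes on either strand; Myh8 and Myh1 share both longer runs in the same order, and Myh7 shares none.

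The sequencing depth is not given and could not be recovered, since the values are fitted abundances that go down to 6.16e-09 FPKM with no exact 0. Median FPKM of the libraries lay between 11.9 and 13.3. Log2(FPKM + 1) values of the libraries of a group correlated across genes at 0.989 to 0.995. Rn45s, the ribosomal RNA precursor, was uneven, at 4090 FPKM in GAP-2 A and 3387 FPKM in GAP-scr A against 93.2 to 176 FPKM in the other 4 libraries. All 6 myotube markers that were looked for were listed (Acta1, Ckm, Des, Ttn, Neb and Ryr1). Of these 6, 5 were lower over both arms (9.57% of all 10993 tested genes were lower and 24.5% higher), and Des did not pass. The summed level of the 6 markers was 4334 to 4443 FPKM in GAP-2, 4456 to 4785 FPKM in GAP-2/3 and 7592 to 8466 FPKM in GAP-scr. Of the satellite cell marker Pax7, the cardiac markers Nppa, Nppb, Nkx2-5 and Myh6 and the endothelial markers Pecam1, Cdh5 and Kdr none is among the genes listed. The 4 listed fibroblast markers of 6 (Col1a1, Dcn, Pdgfra and S100a4) summed to 4762 to 5018 FPKM in GAP-2, 6593 to 7117 FPKM in GAP-2/3 and 3692 to 4160 FPKM in GAP-scr. Most of this sum was S100a4. Dcn, Pdgfra and S100a4 were higher over both arms (24.5% of all), and Col1a1 was lower (9.57% of all), at -0.54 (limma adjusted p = 0.00484).

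All 4 listed smooth muscle markers of 5 (Acta2, Tagln, Cnn1 and Smtn) were lower over both arms (9.57% of all tested genes). They summed to 1397 to 1440 FPKM in GAP-2, 1599 to 1620 FPKM in GAP-2/3 and 2141 to 2385 FPKM in GAP-scr, most of it Acta2, which young myotubes also express. The 3 listed markers of 5 for undifferentiated myoblasts or satellite cells (Myf5, Cdh15 and Notch3) summed to 137 to 143 FPKM in GAP-2, 131 to 145 FPKM in GAP-2/3 and 167 to 170 FPKM in GAP-scr. Of these, Cdh15 and Notch3 were lower over both arms (9.57% of all) and Myf5 was higher (24.5% of all). Of 5 macrophage markers only Cd68 was listed, at 2.43 to 3.54 FPKM in GAP-2, 0.834 to 0.962 FPKM in GAP-2/3 and 0.374 to 0.917 FPKM in GAP-scr, and it was higher with GAP-2 (1.28, limma adjusted p = 0.000981). The 3 listed cardiac markers of 7 (Gata4, Tnni3 and Tnnt2) summed to 1125 to 1229 FPKM in GAP-2, 1401 to 1416 FPKM in GAP-2/3 and 1485 to 1504 FPKM in GAP-scr, nearly all of it Tnnt2, which myotubes also express. The part of these marker differences in the results on myosin was not tested. In bulk RNA, fewer myotubes and less myosin RNA per myotube cannot be told apart.

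The 9 genes differed widely in level. In GAP-scr, Mylpf, the regulatory light chain of fast muscle, averaged 5838 ± 620 FPKM (SD, n = 2) and was rank 3 of all genes. Next came Myh3, the embryonic heavy chain, at 931 ± 18.8 FPKM, then Myl1, the fast essential light chain, at 640 ± 24.1 FPKM, and Mybph at 532 ± 49.7 FPKM. Myl4, the essential light chain of embryonic muscle and of the atrium, stood at 444 ± 103 FPKM, and its libraries overlapped those of Mybph. Myl6b, the essential light chain of slow muscle, averaged 170 ± 32.5 FPKM. Far below these lay Myh1, the adult fast IIx heavy chain, at 16.3 ± 3.26 FPKM, Myh7, the slow and cardiac β heavy chain, at 5.53 ± 0.0287 FPKM, and Myh8, the perinatal heavy chain, at 4.07 ± 0.702 FPKM. Myh3 alone made up 96.0% to 97.0% of the summed FPKM of the 6 listed sarcomeric heavy chain genes in every library. The heavy chain paralogs are near-identical over long stretches, so that a small misassigned share of Myh3 reads could make up much of the low values of Myh8, Myh1 and Myh7; the sources used here do not say how such reads were assigned.

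The first comparison asked how these levels differed with gapmers directed at Charme. Set against GAP-scr, 7 of the 9 genes were lower with GAP-2 (4.18% of all 10993 tested genes were lower) and none was higher (10.4% of all). With GAP-2/3, 5 of 9 were lower (11.3% of all) and none was higher (28% of all). Averaged over the arms, 7 were lower (9.57% of all) and none higher (24.5% of all). These calls are limma adjusted p-values under 0.05, adjusted over all tested genes. At an unadjusted p under 0.05, 0 of the 9 genes were higher in these comparisons, and 7, 7 and 8 were lower. Of all 10993 tested genes, 1110, 1586 and 1450 were then lower and 2382, 3800 and 3552 higher. The median log2 change of the 9 genes was -0.56 with GAP-2, -0.44 with GAP-2/3 and -0.51 for both arms, where the medians of all tested genes were 0.07, 0.13 and 0.10. Because the control libraries are shared, the counts of the arms are not independent. Adding 1 to FPKM before the logarithm makes the changes of the weakly expressed heavy chains look smaller than they are.

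**Figure D2:**
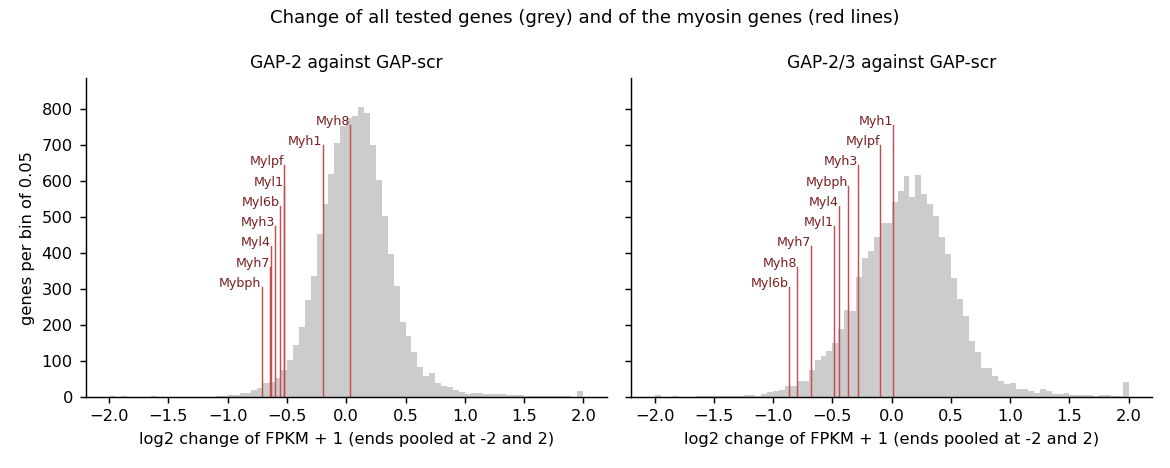
Log2 change of FPKM + 1 for all 10993 tested genes (grey bars, genes per bin of 0.05, ends pooled) and for the 9 myosin genes (red lines) in each arm against GAP-scr. With GAP-2, 7 genes lie between -0.71 and -0.52, apart from Myh1 at -0.20 and Myh8 at 0.03; with GAP-2/3 they spread from -0.87 (Myl6b) to 0.01 (Myh1).

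Among the heavy chains, Myh3 held 561 and 667 FPKM in GAP-2 and 730 and 802 FPKM in GAP-2/3, against 918 and 944 FPKM in GAP-scr. Every gapmer library was below both GAP-scr libraries, and GAP-2 was lowest. How many of all tested genes separate in this way was not counted, here or for the genes below. With GAP-2 the log2 change was -0.60 ± 0.12 (SE, adjusted p = 0.00714), a level 0.66 times that of GAP-scr. With GAP-2/3 it was -0.28 ± 0.12 with a 95% interval of -0.54 to -0.02, which did not pass (adjusted p = 0.0769). Scaling every library to a common median gave -0.39 for GAP-2/3, which passed (adjusted p = 0.0340). Without GAP-2 A the GAP-2 change was -0.48 and did not pass (adjusted p = 0.113), and over both arms it was -0.44 ± 0.10 and passed under all 15 alternatives.

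Myh7 was at 2.93 and 3.46 FPKM in GAP-2 and at 2.96 and 3.18 FPKM in GAP-2/3, against 5.55 and 5.51 FPKM in GAP-scr. The gapmer libraries overlapped with each other, and both GAP-scr libraries lay well above them. The log2 change was -0.64 ± 0.12 with GAP-2 (adjusted p = 0.00646) and -0.68 ± 0.12 with GAP-2/3 (adjusted p = 0.00178). The arms differed from each other by -0.04, with a 95% interval of -0.31 to 0.23. Without GAP-2 A the GAP-2 change of Myh7 was -0.55 (adjusted p = 0.0843). With a pseudocount of 0.1, which shrinks low levels less, the change over both arms was -0.80 against -0.66 in the analysis as planned. No value was obtained for Myh7 or Myh8 with a minimum mean of 5 FPKM, which both miss.

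The adult fast chain Myh1 was at 11.9 and 16.2 FPKM in GAP-2 and at 15.02 and 17.6 FPKM in GAP-2/3, against 13.97 and 18.6 FPKM in GAP-scr. The groups overlapped throughout. The log2 change was -0.20 (95% interval -0.56 to 0.16) with GAP-2 and 0.01 (-0.35 to 0.38) with GAP-2/3, where it was -0.10 with one median and -0.09 under quantile normalization. A fall of the size seen for Myh3 with GAP-2/3 lies within the GAP-2/3 interval. For both arms it was -0.09, with a 95% interval of -0.41 to 0.22, and 0.10 without GAP-scr B.

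The perinatal chain Myh8 held 3.50 and 4.90 FPKM in GAP-2 and 2.18 and 1.65 FPKM in GAP-2/3, against 4.56 and 3.57 FPKM in GAP-scr. GAP-2 and GAP-scr overlapped, while both GAP-2/3 libraries lay below all others. With GAP-2/3 the log2 change was -0.80 ± 0.16 (adjusted p = 0.00340), and with GAP-2 it was 0.03 with a 95% interval of -0.32 to 0.39, turning to -0.04 with one median and -0.08 under quantile normalization. Without GAP-2/3 B the GAP-2/3 change was -0.67 (adjusted p = 0.0508). For both arms it was -0.38 ± 0.14 and did not pass (adjusted p = 0.0539), but it passed with one median (-0.47, adjusted p = 0.0359), under quantile normalization (-0.53, adjusted p = 0.0197) and with the replicate letter as a block (adjusted p = 0.0255). It also passed without GAP-2 B (-0.48) and without GAP-scr B (-0.53). It was smaller and did not pass without GAP-2 A (-0.29, adjusted p = 0.160), GAP-2/3 B (-0.32, adjusted p = 0.161) or GAP-scr A (-0.24, adjusted p = 0.261). Without both libraries highest in Rn45s, a choice made after the data were seen, it was -0.14 (adjusted p = 0.529).

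**Figure D3:**
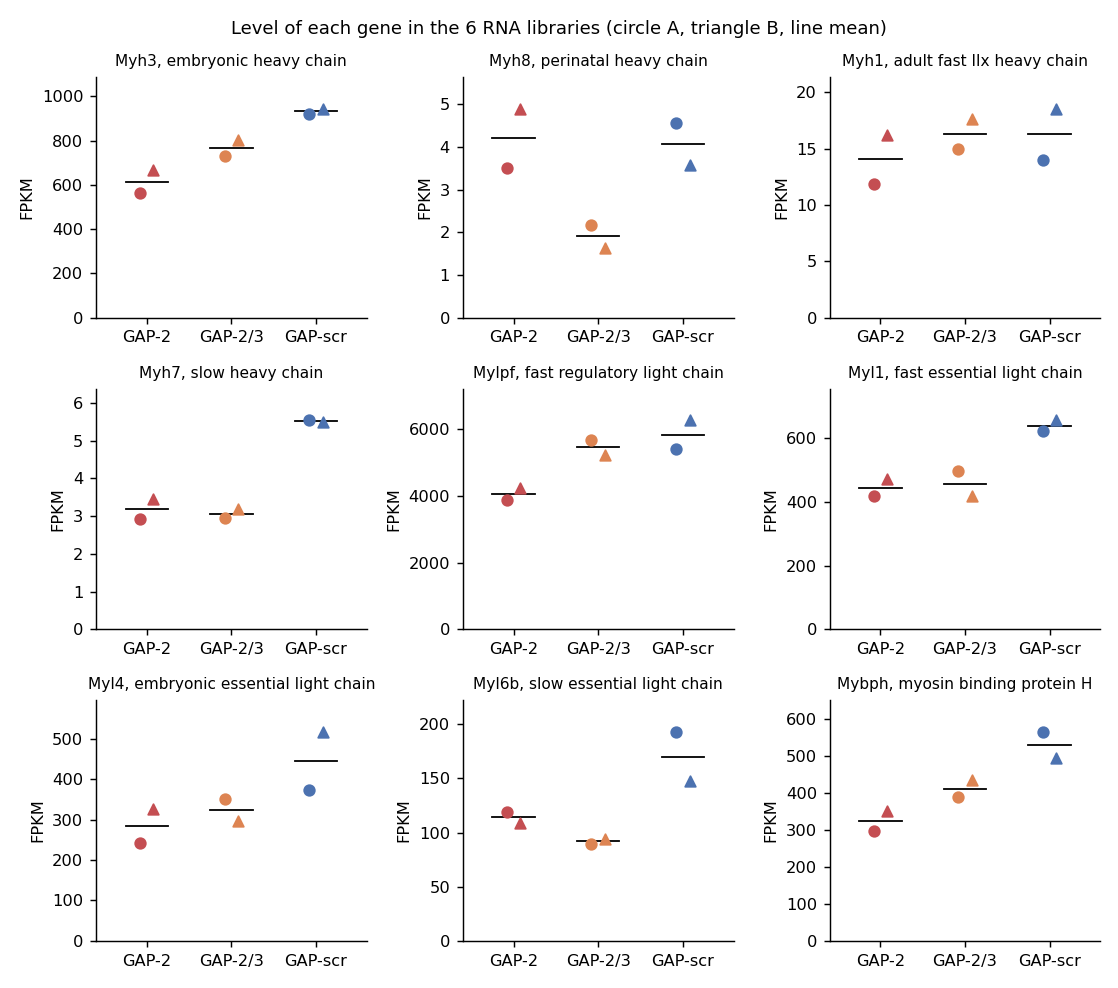
FPKM of the 9 genes in the GAP-2, GAP-2/3 and GAP-scr libraries (circle A, triangle B, line the mean of 2 libraries; each axis starts at 0). All gapmer libraries of Myh3, Myh7, Myl1, Myl4, Myl6b and Mybph lie below both GAP-scr libraries, Myh8 is lowest in GAP-2/3 and Myh1 overlaps between the groups. The share of all tested genes that separate in this way was not counted.

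Among the light chains, Mylpf, the most abundant of the 9, was lower with GAP-2 and did not pass with GAP-2/3. It was at 3872 and 4243 FPKM in GAP-2 and at 5686 and 5228 FPKM in GAP-2/3, against 5399 and 6276 FPKM in GAP-scr. Both GAP-2 libraries lay below all others, and the GAP-2/3 libraries overlapped with GAP-scr. With GAP-2 the log2 change was -0.52 ± 0.13 (adjusted p = 0.0201), and with GAP-2/3 it was -0.09 with a 95% interval of -0.37 to 0.18 (0.01 without GAP-scr B). The GAP-2 call was lost without any 1 of GAP-2 A (-0.46, adjusted p = 0.189), GAP-2 B (-0.59, adjusted p = 0.103), GAP-2/3 A or GAP-2/3 B (-0.52 in both, adjusted p = 0.0592 and 0.0598) and when only the GAP-2 and GAP-scr libraries were fitted (adjusted p = 0.0607). For both arms Mylpf passed narrowly (-0.31 ± 0.11, adjusted p = 0.0481) and did not pass with the replicate letter as a block (adjusted p = 0.0555) or without any 1 of the libraries GAP-2 A (-0.28), GAP-2 B (-0.34), GAP-2/3 A (-0.34), GAP-2/3 B (-0.28) or GAP-scr B (-0.20).

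Myl1, which encodes both fast essential light chains from separate promoters that gene-level values do not tell apart, was at 418 and 471 FPKM in GAP-2 and at 496 and 419 FPKM in GAP-2/3, against 623 and 657 FPKM in GAP-scr. All 4 gapmer libraries lay below both GAP-scr libraries. Its log2 change was -0.53 ± 0.12 with GAP-2 (adjusted p = 0.0146) and -0.49 ± 0.12 with GAP-2/3 (adjusted p = 0.00847). The GAP-2 call was lost without GAP-2 A (-0.44, adjusted p = 0.150) and the GAP-2/3 call without GAP-2/3 B (-0.37, adjusted p = 0.0839).

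The embryonic light chain Myl4 was at 243 and 327 FPKM in GAP-2 and at 350 and 297 FPKM in GAP-2/3, against 372 and 517 FPKM in GAP-scr. The groups did not overlap, but the GAP-scr libraries were further apart from each other than the GAP-2/3 libraries from the lower of them. The log2 change was -0.64 ± 0.17 with GAP-2 (adjusted p = 0.0310) and -0.44 ± 0.17 with GAP-2/3 (adjusted p = 0.0605). The size turned on the controls: without GAP-scr B it was -0.40 with GAP-2 and -0.21 with GAP-2/3, and without GAP-scr A it was -0.87 and -0.68, which both passed. The GAP-2 call was also lost without GAP-2 A (-0.42), without GAP-2/3 A or GAP-2/3 B, and with only the GAP-2 and GAP-scr libraries (adjusted p = 0.0837), and the GAP-2/3 change passed without GAP-2 A or GAP-2 B and with the replicate letter as a block (adjusted p = 0.0132). Over both arms Myl4 passed (-0.54 ± 0.15, adjusted p = 0.0177) but not without GAP-2/3 A (-0.60), GAP-2/3 B (-0.48) or GAP-scr B (-0.30).

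Myl6b had 119 and 109 FPKM in GAP-2 and 89.3 and 94.5 FPKM in GAP-2/3, against 193 and 147 FPKM in GAP-scr. GAP-2/3 was lowest, GAP-2 next and GAP-scr highest, with no overlap. The log2 change was -0.56 ± 0.13 with GAP-2 (adjusted p = 0.0169) and -0.87 ± 0.13 with GAP-2/3 (adjusted p = 0.000668); the GAP-2/3 level was 0.55 times that of GAP-scr. The GAP-2 call was lost without GAP-2 B (-0.50), GAP-2/3 A or GAP-2/3 B (-0.56 in both) and with only the GAP-2 and GAP-scr libraries (adjusted p = 0.0556), and the change was -0.37 without GAP-scr A, at an adjusted p under the threshold. Without both libraries highest in Rn45s the GAP-2 change was -0.43 (adjusted p = 0.0889).

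Mybph encodes myosin binding protein H, a thick filament protein related to the myosin binding proteins C. It was at 297 and 352 FPKM in GAP-2 and at 389 and 435 FPKM in GAP-2/3, against 567 and 497 FPKM in GAP-scr. The groups did not overlap, and GAP-2 was lowest. The log2 change was -0.71 ± 0.12 with GAP-2 (adjusted p = 0.00387) and -0.37 ± 0.12 with GAP-2/3 (adjusted p = 0.0351). The GAP-2/3 call was lost without any 1 of GAP-2 A or GAP-2 B (-0.37 in both, adjusted p = 0.0515), GAP-2/3 A (-0.29), GAP-2/3 B (-0.45) or GAP-scr A (-0.27), and with only the GAP-2/3 and GAP-scr libraries (adjusted p = 0.0519).

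Over both arms the calls of Myh3, Myh7, Myl1, Myl6b and Mybph, 5 of the 7, held under every alternative that gave a value. For GAP-2 alone this was so of Mybph, and for GAP-2/3 alone of Myh7 and Myl6b. The alternative with a threshold of 0.1 is looser, so no call could be lost under it. How many of all called genes held under every alternative was not counted. Relative to the median change of all genes, which was 0.10 over both arms, the 9 genes lay between -0.82 (Myl6b) and -0.20 (Myh1). Relative to the GAP-2/3 median of 0.13, Myh8 was at -0.93, Myh3 at -0.41 and Mylpf at -0.22.

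The next comparison set the arms against each other, which tests directly whether a gene changed differently with GAP-2/3 than with GAP-2. Of the 9 genes, 1 was lower in GAP-2/3 (3.65% of all tested genes were lower) and none was higher (6.5% of all). At an unadjusted p under 0.05, 2 were lower and 3 higher. Of all 10993 tested genes, 1003 were then lower and 1851 higher. The one lower by adjusted p was Myh8, with a log2 difference of -0.83 ± 0.16 (adjusted p = 0.00918). This difference did not pass without GAP-2 B (-0.63, adjusted p = 0.0652), GAP-2/3 A (-0.96, adjusted p = 0.0809) or GAP-2/3 B (-0.70, adjusted p = 0.136). Mylpf differed by 0.43 ± 0.13 with a 95% interval of 0.15 to 0.70 and just missed the threshold (adjusted p = 0.0535); it passed with the replicate letter as a block (adjusted p = 0.0471), without an intensity trend (adjusted p = 0.0485) and when only these 4 libraries were fitted (adjusted p = 0.00487). Under quantile normalization it was 0.25 (adjusted p = 0.237). In the fit of these 4 libraries Myh3 (0.32, adjusted p = 0.0413), Mybph (0.35, adjusted p = 0.0333) and Myl6b (-0.31, adjusted p = 0.0379) passed too, of which none did in the fit of all 6 libraries. For Myl1, Myl4 and Myh1 the differences were 0.04 (95% interval -0.22 to 0.30), 0.19 (-0.18 to 0.57) and 0.21 (-0.15 to 0.58).

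**Figure D4:**
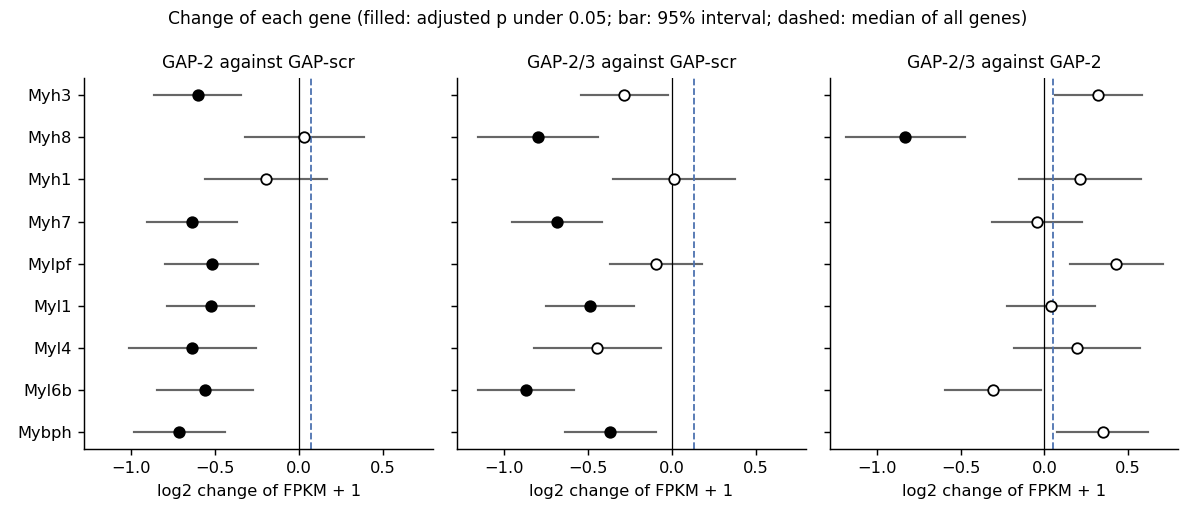
Log2 change of FPKM + 1 of the 9 genes (dots) with its 95% interval (bars) for GAP-2 against GAP-scr, GAP-2/3 against GAP-scr and GAP-2/3 against GAP-2. Filled dots have an adjusted p under 0.05 and the dashed line is the median of all tested genes; Myh8 is the one filled dot in the comparison of the arms, at -0.83.

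Developmental and adult isoforms were then compared. Of the developmental genes (Myh3, Myh8, Myl4 and Myl6b) 3 of 4 were lower over both arms, and of the adult ones (Myh1, Myh7, Myl1 and Mylpf) 3 of 4 were lower as well. Their median log2 changes were -0.49 for the developmental and -0.41 for the adult genes. With GAP-2, 3 of 4 of each were lower, with medians of -0.58 and -0.52. With GAP-2/3, 2 of 4 of each were lower, but the medians were further apart, at -0.62 for the developmental and -0.29 for the adult genes. At an unadjusted p under 0.05, all 4 developmental and 2 of 4 adult genes were lower with GAP-2/3. Of all 10993 tested genes, 1586 were lower at this threshold. By adjusted p, 9.57% of all tested genes were lower over both arms, 4.18% with GAP-2 and 11.3% with GAP-2/3. The grouping is not sharp, since Myl1 and Mylpf are also used in developing muscle and Myl6b also in adult slow muscle. With Myl6b counted as adult, a choice made after the data were seen, 2 of 3 developmental and 4 of 5 adult genes were lower over both arms, and 1 of 3 and 3 of 5 with GAP-2/3. The GAP-2/3 medians were then -0.44 for the developmental and -0.49 for the adult genes. The difference between the groupings was not tested.

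Ratios within a library do not depend on its scaling, apart from the pseudocount. The log2 ratio of Myh1 to Myh3 was -5.45 and -5.28 in GAP-2 and -5.51 and -5.43 in GAP-2/3, against -5.94 and -5.59 in GAP-scr. All 4 gapmer libraries had more Myh1 per Myh3 than either GAP-scr library. The difference was 0.35, and the exact permutation test over libraries (two-sided, 4 against 2) gave p = 0.0667, the smallest value that 15 regroupings allow, and 0.200 when adjusted over the 3 ratios. The size turned on the controls: it was 0.18 without GAP-scr A and 0.52 without GAP-scr B. Expressed as shares, Myh1 made up 2.19% ± 0.212 of the heavy chain FPKM in GAP-2, 2.06% ± 0.0936 in GAP-2/3 and 1.69% ± 0.303 in GAP-scr (SD, n = 2 each).

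For Myh8 to Myh3 the log2 ratio was -6.97 and -6.82 in GAP-2 and -7.85 and -8.24 in GAP-2/3, against -7.37 and -7.69 in GAP-scr. The arms lay on opposite sides of GAP-scr, and their joint difference from it was 0.06 (exact permutation p = 1). For the essential light chains, Myl1 to Myl4 was at 0.78 and 0.53 in GAP-2 and at 0.50 and 0.50 in GAP-2/3, against 0.74 and 0.34 in GAP-scr, with overlapping groups and a difference of 0.03 (exact permutation p = 0.933). Myl1 made up 49.7% to 53.6%, Myl4 31.2% to 39.1% and Myl6b 9.55% to 16.3% of the summed FPKM of these light chains over the 6 libraries. The sum itself was 780 and 907 FPKM in GAP-2 and 935 and 811 FPKM in GAP-2/3, against 1188 and 1321 FPKM in GAP-scr.

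**Figure D5:**
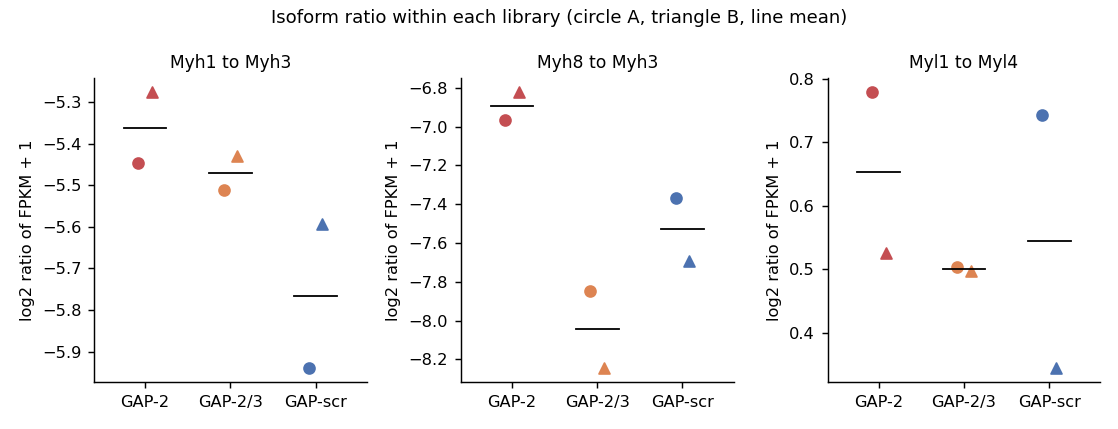
Log2 ratio of FPKM + 1 of Myh1 to Myh3, Myh8 to Myh3 and Myl1 to Myl4 within each GAP-2, GAP-2/3 and GAP-scr library (circle A, triangle B, line the mean). Myh1 to Myh3 is higher in all 4 gapmer libraries than in GAP-scr, Myh8 to Myh3 is highest in GAP-2 and lowest in GAP-2/3, and Myl1 to Myl4 overlaps; the axes do not start at 0.

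Other sarcomeric myosin genes were near the lower end of the table, within or below the 1.65 to 4.90 FPKM of Myh8. Of 13 looked for, Myh4, Myh7b, Myl2 and Mybpc1 were listed and 3 were tested, Myl2 being below the minimum mean at 0.709 to 1.05 FPKM. Mybpc1, the slow myosin binding protein C, was at 3.35 and 2.72 FPKM in GAP-2 and at 1.32 and 1.39 FPKM in GAP-2/3, against 4.63 and 2.44 FPKM in GAP-scr. Like Myh8 it was lower in both GAP-2/3 libraries than in all others, with a log2 change of -0.90 (adjusted p = 0.00443) and a difference from GAP-2 of -0.77 (adjusted p = 0.0275). Myh4, the adult fast IIb chain, and Myh7b, a heavy chain related to the slow one, did not pass in any of the 4 comparisons and stayed between 1.46 and 2.59 FPKM.

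The myosins of all cells and of smooth muscle were looked at beside these. Of 8, 6 were listed and tested, and 1 was lower and none higher over both arms. Of all tested genes, 9.57% were lower and 24.5% higher. At an unadjusted p under 0.05, 2 of the 6 were lower and 0 higher, against 1450 lower and 3552 higher of all 10993 genes. A single lower gene among 6 is near the share over all genes. That one was Myh9, the non-muscle heavy chain IIA, at 206 and 204 FPKM in GAP-2 and at 217 and 274 FPKM in GAP-2/3, against 308 and 334 FPKM in GAP-scr. All gapmer libraries lay below GAP-scr, with log2 changes of -0.64 with GAP-2 (adjusted p = 0.00646) and -0.39 with GAP-2/3 (adjusted p = 0.0260). Myl6, the non-muscle essential light chain and relative of Myl6b, was at 739 and 781 FPKM in GAP-2 and at 1062 and 923 FPKM in GAP-2/3, against 782 and 887 FPKM in GAP-scr, and changed by 0.06 over both arms (adjusted p = 0.683). Myh10, Myl9, Myl12a and Myl12b did not pass in any of the 4 comparisons.

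Of 11 tested kinases, phosphatase subunits and chaperones of myosin, 2 were lower (9.57% of all genes) and 2 higher (24.5% of all) over both arms, so that neither count was far from the share over all genes. Unc45b, the chaperone that folds the myosin head in striated muscle, was at 59.9 and 61.5 FPKM in GAP-2 and at 60.9 and 62.8 FPKM in GAP-2/3, against 85.9 and 96.7 FPKM in GAP-scr (log2 change over both arms -0.57 ± 0.09, adjusted p = 0.00131). Its partner Hsp90aa1 was at 413 and 416 FPKM in GAP-2 and at 430 and 389 FPKM in GAP-2/3, against 313 and 238 FPKM in GAP-scr (0.59 ± 0.11, adjusted p = 0.00316). In both genes the arms were close to each other and clear of GAP-scr. Ppp1r12b, a myosin phosphatase subunit, was lower (-0.44, adjusted p = 0.0112) and Ppp1cb, the catalytic subunit, higher (0.37, adjusted p = 0.0345).

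Of 20 tested regulators of muscle differentiation and fibre type, 6 were lower (9.57% of all genes) and 3 higher (24.5% of all) over both arms, with a median log2 change of -0.18. By the rule for named genes these are the 4 with the smallest p. Myf5, a factor of undifferentiated myoblasts, was higher (0.98, adjusted p = 0.000153), while Notch3 (-0.89, adjusted p = 0.000181) and Cdh15 (-0.29, adjusted p = 0.0386) of the same marker list were lower. Tead4 was at 19.4 and 21.4 FPKM in GAP-2 and at 17.9 and 18.6 FPKM in GAP-2/3, against 30.4 and 31.2 FPKM in GAP-scr, and was lower (-0.65, adjusted p = 0.000678); it encodes a transcription factor of the TEA family. Myod1, a master factor of myogenesis, was lower (-0.57, adjusted p = 0.00220). Nfix, a factor of the switch from embryonic to fetal muscle genes, was at 23.4 and 20.9 FPKM in GAP-2 and at 17.1 and 20.6 FPKM in GAP-2/3, against 32.9 and 29.2 FPKM in GAP-scr, and was lower too (-0.58, adjusted p = 0.00274).

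The genes most like a heavy chain were taken as those with the highest Pearson correlation of log2(FPKM + 1) over the 6 libraries, among 8501 other genes whose mean reached 5 FPKM. The libraries share their groups and their scaling, so the values describe a common pattern and no test is given. For Myh7 these were Myom2, a structural protein of the M-band, at r = 0.995, Lama2, a laminin chain of the muscle basement membrane, at 0.995, and Sntb1, a syntrophin of the dystrophin complex, at 0.993. Myom2 was at 64.5 and 76.7 FPKM in GAP-2 and at 66.2 and 69.4 FPKM in GAP-2/3, against 104 and 108 FPKM in GAP-scr, the same step as Myh7. For Myh3 they were Dirc2 (0.989), BC051019 (0.987) and Deaf1 (0.986), and for Myh8 they were Pgm2 (0.973), Wdr41 (0.973) and Bbc3 (0.972). Pgm2 was at 85.8 and 95.4 FPKM in GAP-2 and at 58.1 and 56.9 FPKM in GAP-2/3, against 94.0 and 86.5 FPKM in GAP-scr, low in GAP-2/3 alone as Myh8 was.

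A second assay of the series, ChIRP-seq, sequenced DNA pulled down with probes to Charme, with 1 library each for the even and odd probe sets, the input and the LacZ probes. The authors deposited 798 merged peaks in 1 list. Within 50000 bp of the spans of the 9 genes there were 0 peaks, where 5.66% of 10961 tested genes with a RefSeq position had one. At 100000 bp it was 0 of 9 and 9.39% of all. The positions were read as GRCm38, although the submitters' notes name mm9, because a peak lies past the mm9 end of chromosome X; that build is an inference, and RefSeq positions of GRCm38.p6 were used for the genes.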

How the data were processed

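The authors deposited FPKM values in 1 table, with 11228 genes and a column for each of 6 libraries. They also deposited a list of 798 merged ChIRP peaks with a score each and no header. The submitters' processing notes list, with no roles, the build mm9 and these tools: bedtools, Bowtie2, CASAVA, Cuffdiff, Cufflinks, cutadapt, FastQC, MACS, TopHat2 and Trimmomatic. FPKM keeps no depth, so counting error could not be given and no count test was run.

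Log2(FPKM + 1) was fitted with limma 3.58.1 in R 4.3.3, all 3 groups together, with an intensity trend, no covariate and no further scaling. A gene entered if its mean reached 1 FPKM, which left 10993. Benjamini-Hochberg adjustment ran over all of these, the threshold was 0.05, and intervals are 95%. The steps were tested on simulated data. Ratios were compared by exact permutation in Python 3.11.15.

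The members, lists and naming rule were chosen with earlier results of these data known. Named are all 9 members, any listed gene of both other myosin lists, the 4 smallest p over both arms in each further list, and the 3 genes most correlated with Myh3, Myh8 and Myh7. The peak score served only to keep peaks above its median in one alternative.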

Additional observations from a re-analysis of the deposited data

Results flagged for a closer look

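The log2 change of Myh8 differed between the arms by -0.83 (GAP-2/3 minus GAP-2, adjusted p = 0.00918 in limma), where it was -0.80 with GAP-2/3 and 0.03 with GAP-2. It was flagged because the difference itself was tested and passed. With 2 libraries in a group no library could be tested as standing apart. The Myh8 levels were low, at 1.65 to 4.90 FPKM over the 6 libraries.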

How the results depend on the processing

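Alternatives were another pseudocount (0.1), other filters on low values, another scaling, no intensity trend, a threshold of 0.1, a fit of only the libraries compared and each library left out; leaving out both libraries highest in Rn45s was chosen after seeing the data. Over them, 467 log2 changes of single genes kept their direction and side of the threshold, 39 were no longer past it, 33 came past it and 20 changed sign; the cause was not tested. With 2 libraries in a group and no known depth, small changes could not be resolved. Myh7 and Myh8 gave no value at a mean of at least 5 FPKM.

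The letters A and B were not taken as pairs. Deviations of libraries with the same letter correlated at 0.36 between GAP-2 and GAP-scr, where both A libraries were high in Rn45s, at -0.131 between GAP-2/3 and GAP-scr and at -0.181 between GAP-2/3 and GAP-2. With the letter as a replicate block, 1955 genes were called with GAP-2 (1604 without it), 4466 with GAP-2/3 (4323), 3944 over both arms (3750) and 1469 between the arms (1115). With the letter as a replicate block, 1 of the 9 myosin genes was higher in GAP-2/3 than in GAP-2 (Mylpf), against 0 without it.

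The split of all called genes depended on scaling. Over both arms it was 1052 lower and 2698 higher as reported, 1560 and 1569 after scaling to one median, and 1695 and 1568 after quantile normalization. With GAP-2/3 it was 1242 and 3081 as reported, 1817 and 1888, and 1960 and 1820; with GAP-2 it was 460 and 1144, 642 and 686, and 687 and 692. Between the arms it was 401 and 714, 436 and 476, and 503 and 493.

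Of the 9 genes, the number lower with GAP-2 was 4 with only the libraries compared, and 2 to 7 with a library left out. With GAP-2/3 it was 3 at a mean of at least 5 FPKM, and 2 to 5 with a library left out. Between the arms, 0 were lower at a mean of at least 5 FPKM, 2 with only the libraries compared, and 0 to 2 with a library left out. The number higher was 1 with no intensity trend and without both libraries highest in Rn45s, 2 at a threshold of 0.1, 3 with only the libraries compared, and 0 to 3 with a library left out. All genes called numbered 2080 to 3948 over both arms with a library left out (3750 as reported) and 1538 to 4481 with GAP-2/3 (4323). With GAP-2 they numbered 504 to 2624 (1604), 2567 at a threshold of 0.1 and 937 with only the libraries compared. Between the arms they numbered 195 to 2052 (1115), 1781 at a threshold of 0.1 and 2055 with only the libraries compared.

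The Myh8 to Myh3 difference was -0.064 with a pseudocount of 0.1 and -0.16 to 0.32 with a library left out, and the Myl1 to Myl4 difference -0.17 to 0.23. The Myh1 to Myh3 difference kept its sign, at 0.18 to 0.52. No ratio could have passed with so few regroupings, so their p-values say nothing of stability. The log2 changes that turned sign had not passed the threshold. Myh1 ran from -0.29 to 0.10 over both arms and from -0.41 to 0.010 with GAP-2 when a library was left out. With GAP-2/3 it ran from -0.18 to 0.21, and was -0.10 with one median, -0.088 under quantile normalization and -0.18 without both libraries highest in Rn45s. Myh8 with GAP-2 ran from -0.16 to 0.23, and was -0.037 with one median and -0.076 under quantile normalization. Mylpf with GAP-2/3 ran from -0.20 to 0.014. Between the arms, Myh7 ran from -0.13 to 0.048, Myl1 from -0.080 to 0.16 and Myl4 from -0.020 to 0.41; Myl1 was -0.032 under quantile normalization and -0.046 without both libraries highest in Rn45s, where Myl4 was -0.020.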
